A study of Mus musculus with 2 samples.

Results

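The neurons described here are the Drd2 spiny projection neurons of the mouse subventricular zone (SVZ) dissection, read as single nuclei. A barcode was kept as a Drd2 nucleus when it had at least 500 genes and at most 5% mitochondrial counts, at least 3 detected genes of 8 that mark striatal projection neurons (Rarb, Pde10a, Ano3, Rgs9, Gng7, Adcy5, Ppp1r1b and Bcl11b), at least 2 unique molecular identifiers (UMIs, 1 per counted RNA molecule) of Drd2, Adora2a and Gpr6 together, fewer UMIs of Drd1, Ebf1, Isl1 and Tac1 together than of those 3, at most 1 UMI of Slc17a7 and 0 of Chat. The rule found 2630 nuclei among 28964 barcodes that passed the first filters and 29330 barcodes in all, of which 1520 came from the control and 1110 from the MIP library. Mice had been divided on postnatal day 5 into controls, whose tissue is labelled healthy, and mice with modeled intestinal perforation (MIP), and the SVZ of both groups was snap frozen and its nuclei isolated on postnatal day 7. Each group is 1 library. Strain, sex, litter and the number of animals per library do not appear in the sources used here.

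Spiny projection neurons are the GABA-releasing output neurons of the striatum, which lies beside the SVZ. Those that carry the dopamine receptor Drd2 form the indirect pathway: they project to the external globus pallidus, express the adenosine receptor Adora2a and the opioid peptide precursor Penk, and dopamine lowers their cyclic AMP through Drd2 while adenosine raises it through Adora2a. Those that carry Drd1 form the direct pathway and express Tac1 and Pdyn. Both are born before birth in the lateral ganglionic eminence and mature over the first postnatal weeks.

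The control library held 146730970 UMIs and the MIP library 100823376. Drd2 nuclei had a median of 11302 UMIs and 4111 genes in control and 9142.5 UMIs and 3482 genes in MIP nuclei, and ranged from 1031 to 93510 and from 1333 to 61192 UMIs. Their median mitochondrial share was 0.635% and 0.409%. The libraries differed in sex: the Drd2 nuclei held 35749 and 16 UMIs of Xist, made in females, and 8 and 5488 UMIs of 4 genes of the Y chromosome (Uty, Ddx3y, Eif2s3y, Kdm5d). Group, sex and library cannot be told apart in any comparison of MIP with control, and with 1 library per group no test was possible. Intervals are exact, at 95%, and take in counting error alone. Of 115 barcodes that occur in both libraries, 1 was a Drd2 nucleus in both. A doublet score removed 368 control and 173 MIP Drd2 nuclei in 1 alternative, and 237 and 141 carried at least 5 UMIs from 1 of 6 lists of other classes (excitatory neurons, astroglia, oligodendrocyte lineage, microglia, endothelium, ependyma) and were left out in another.

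The values of the genes in the rule describe how the nuclei were chosen and support nothing further. Levels are given as CPM, a gene's UMIs over all nuclei of a class and library, per 1000000 of all their UMIs. Drd2 was at 309.8 CPM in control and 333 CPM in MIP nuclei, Adora2a at 137 and 125 CPM and Gpr6, a constitutively active receptor, at 24.3 and 14.7 CPM. Among nuclei taken by the mirrored rule for Drd1, 4272 control and 2677 MIP nuclei, Drd2 was at 22.4 and 15.1 CPM and Adora2a at 14.6 and 9.28 CPM. In the barcodes of neither class they were at 16.7 and 11.3 CPM and 15.9 and 8.90 CPM. The retinoic acid receptor Rarb was at 1297 and 1093 CPM in Drd2 nuclei and 1035 and 962 CPM in Drd1 nuclei, against 164 and 150.1 CPM elsewhere, and the phosphodiesterase Pde10a at 1798 and 1914 CPM, 1494 and 1569 CPM and 391 and 451 CPM. A Drd2 nucleus had a median of 5 Drd2-side UMIs in control and 4 in MIP nuclei and a median of 7 of the 8 projection neuron genes. All 8 were detected in 40.0% of control and 26.3% of MIP nuclei, and exactly 3 in 51 and 37 nuclei. A further 37 and 23 barcodes met every other condition with 2 of the 8. All 3 Drd2-side genes were seen together in 18.7% and 8.65% of nuclei, while 87 and 53 nuclei had no Drd2 UMI and entered through Adora2a or Gpr6. No Drd1-side UMI was found in 42.6% and 59.9%.

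**Figure D1:**
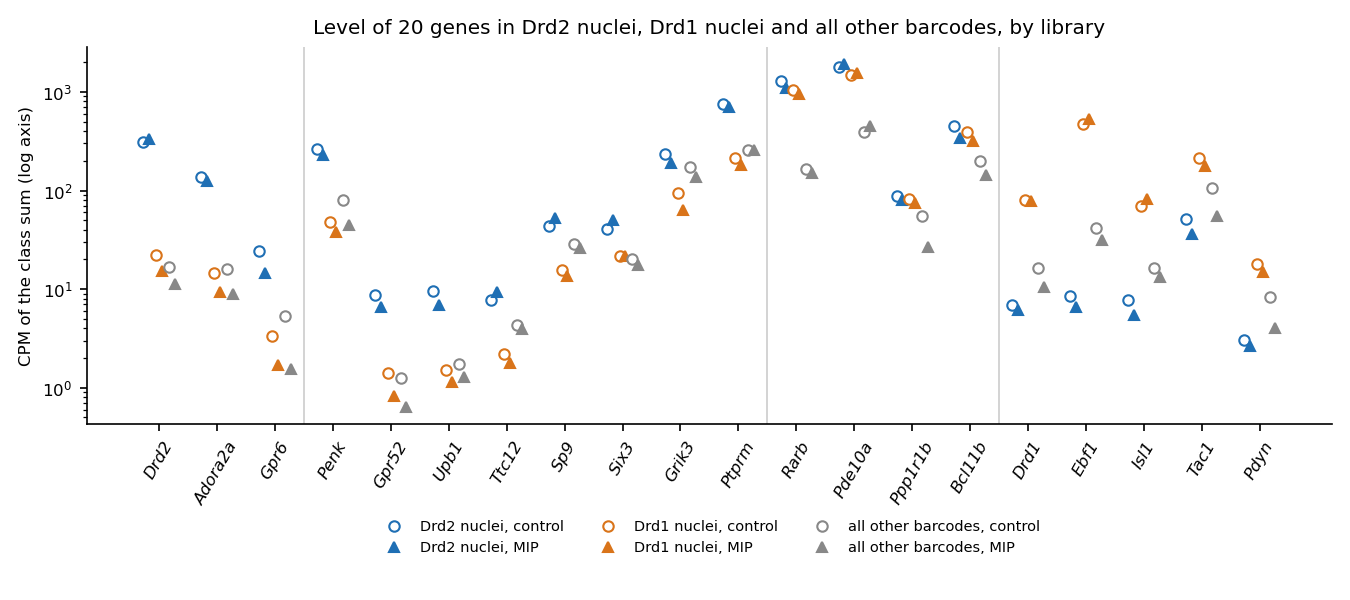
CPM on a log axis for 20 genes in Drd2 nuclei (blue), Drd1 nuclei (orange) and all other passing barcodes (grey), with open circles for the control and filled triangles for the MIP library; grey lines part the Drd2-side genes of the rule, other Drd2-side genes, genes shared by both projection neuron types, and Drd1-side genes. Penk stands at 263 and 230.3 CPM in Drd2 nuclei and at 48.3 and 38.3 CPM in Drd1 nuclei, and Rarb and Pde10a stand close together in both.

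Promoters of the 2 receptor genes of the rule for which RefSeq sequence was at hand are shown because the class is defined by their transcripts. Both run 5′ to 3′ on the coding strand of GRCm38.p6, from 250 bases before to 50 after the annotated start. Capitals mark the GC box (GGGCGG, either strand) in Drd2, at chr9:49340153-49340452 on the plus strand, and the cyclic AMP response element (TGACGTCA) in Gpr6, at chr10:41072241-41072540 on the minus strand.
Drd2: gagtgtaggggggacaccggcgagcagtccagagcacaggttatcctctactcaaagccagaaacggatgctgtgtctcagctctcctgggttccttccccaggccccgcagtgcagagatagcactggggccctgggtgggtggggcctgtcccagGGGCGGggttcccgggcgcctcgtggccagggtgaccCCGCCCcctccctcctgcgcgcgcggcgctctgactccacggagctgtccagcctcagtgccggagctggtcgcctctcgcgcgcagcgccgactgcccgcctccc
Gpr6: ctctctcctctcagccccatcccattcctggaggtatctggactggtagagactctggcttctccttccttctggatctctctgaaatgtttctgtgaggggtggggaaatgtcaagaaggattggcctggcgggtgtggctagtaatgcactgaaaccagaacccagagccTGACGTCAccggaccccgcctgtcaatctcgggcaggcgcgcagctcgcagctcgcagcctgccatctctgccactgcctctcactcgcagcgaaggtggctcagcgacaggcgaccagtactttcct
Drd2 held 2 GC boxes and no TGACGTCA, and Gpr6 held 1 TGACGTCA and no GC box. Of 32851 mouse promoters of this length, 35.66% held a GC box and 1.79% a TGACGTCA. A match is a description of letters and not of a bound site.

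Genes that the rule did not use separated Drd2 from Drd1 nuclei in both libraries. The enkephalin precursor ranked first by the interval bound nearest to 0, though other genes with fewer UMIs had larger ratios. In the Drd2 class Penk was at 263 CPM in control and 230.3 CPM in MIP nuclei, against 48.3 and 38.3 CPM in Drd1 nuclei and 79.3 and 45.2 CPM in the other barcodes, a log2 ratio of Drd2 to Drd1 nuclei of 2.44 (2.38 to 2.51) in control and 2.59 (2.49 to 2.69) in MIP nuclei. Both libraries thus placed it well above its level in Drd1 nuclei. After thinning each nucleus to 3000 UMIs, a Penk UMI was found in 42.3% and 41.5% of Drd2 nuclei, 13.2% and 11.0% of Drd1 nuclei and 32.2% and 21.3% of microglial nuclei, which should lack it; without thinning the shares were 74.8% and 66.8%, 36.3% and 26.0% and 33.3% and 25%. The microglial nuclei were 118 control and 75 MIP barcodes after thinning, with a median depth of 3209 and 2725.5 UMIs before it, and the thinned Drd1 share lay below theirs, so no expression in Drd1 nuclei is read from it. For Drd2 itself the thinned shares were 59.2% and 63.9%, 3.98% and 2.96% and 1.69% and 2.67%.

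Of 14878 genes measured in both classes and outside the rule, 92, or 0.618%, were at least 1.5-fold higher in Drd2 nuclei in both libraries and 393, or 2.64%, at least 1.5-fold lower. All 8 of a list of Drd2-side genes (Penk, Gpr52, Sp9, Six3, Grik3, Ttc12, Upb1 and Ptprm) were among the higher ones, with a median log2 ratio of 1.81 in control and 2.19 in MIP nuclei, against -0.03 and -0.02 over all genes. The list was chosen with earlier results of these data known, so this count is a description and supports nothing further. The orphan receptor Gpr52, known to raise cyclic AMP, was at 8.73 and 6.52 CPM in Drd2 and 1.42 and 0.817 CPM in Drd1 nuclei, log2 ratios of 2.62 and 3.0. The kainate receptor subunit Grik3 had ratios of 1.30 and 1.59 and Ptprm, a receptor tyrosine phosphatase of cell contacts, 1.79 and 1.98. Sp9 and Six3, transcription factors needed for this neuron type, stood at 1.47 and 1.94 and at 0.94 and 1.24. Receptors outside that list ranked high too. Calcr, the calcitonin receptor, had 414 and 149 UMIs in 5.00% and 3.96% of Drd2 nuclei and log2 ratios of 2.47 and 3.45. In each library 1 nucleus held 32 and 28 of these UMIs, and the intervals do not take in such clumping. P2ry1, an ADP receptor, stood at 2.29 and 2.76, and Oprd1, the delta opioid receptor that enkephalin activates, at 26.1 and 23.8 CPM against 5.73 and 3.76 CPM, ratios of 2.19 and 2.67. Ligand and receptor were thus both higher in Drd2 than in Drd1 nuclei.

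Many of the ranked genes are neighbours in the genome. Of the 12 highest genes and the 3 rule genes, 10 of 15 lie within 200000 bases of another of the 15, by GENCODE release M21 on the same build; Gpr52 had no position there and counts as not close. A830012C17Rik (chromosome 4, 4138321 to 4188703, plus strand), with log2 ratios of 2.77 and 2.58, overlaps Penk (4133531 to 4138819, minus strand). Upb1, an enzyme of pyrimidine breakdown, at 2.66 and 2.58, and Gucd1, at 1.80 and 1.98, overlap each other on chromosome 10, and Gucd1 lies 16327 bases from Adora2a. Gm9984 and 1700016K05Rik, at 1.98 and 1.97 and at 1.68 and 2.13, are antisense genes inside Ptprm on chromosome 17, and Ttc12, at 1.83 and 2.41, lies 28786 bases from Drd2 on chromosome 9. Whether the counting used strand is not given in the sources used here, so reads of overlapping and antisense pairs may be shared and these values are uncertain. On the Drd1 side 6 of 16 genes lie that close: Gm12158 is antisense within Ebf1, and E130119H09Rik, Gm34557 and Gm48550 lie next to Drd1 on chromosome 13.

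**Figure D2:**
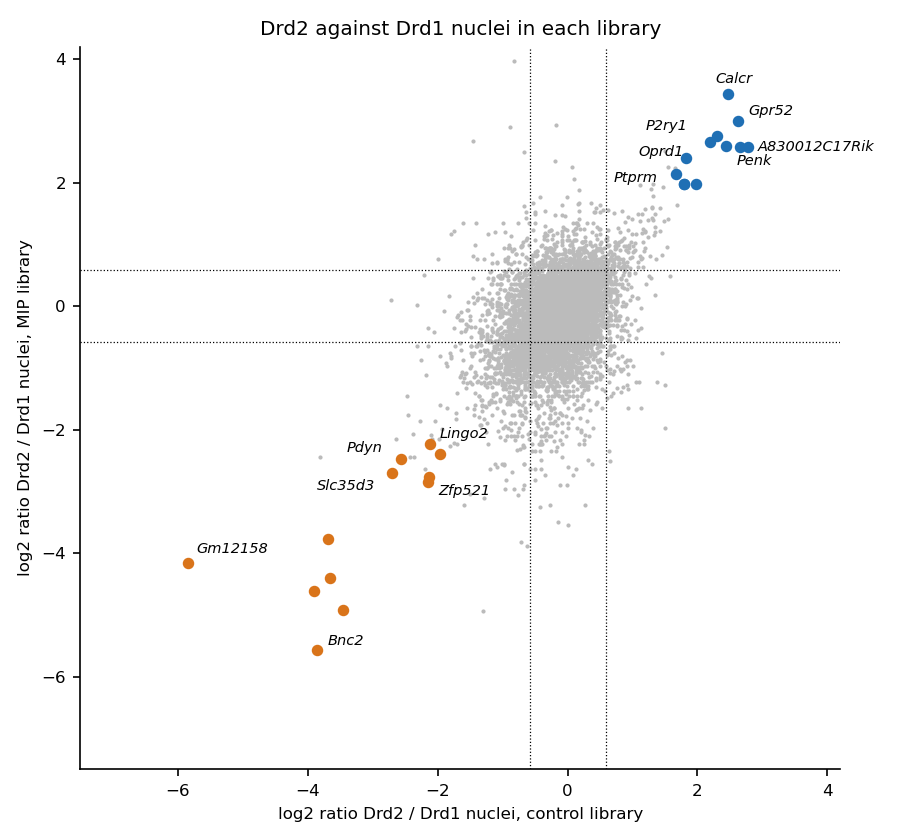
Log2 ratio of Drd2 to Drd1 nuclei in the control (x axis) and MIP library (y axis) for every measured gene outside the rule (grey), with the 12 highest (blue) and 12 lowest (orange) named genes and dotted lines at a ratio of 1.5; genes at 0 UMIs in a class are not drawn. The 12 highest genes lie in the upper right corner, with ratios above 1.5 on the log2 scale in both libraries, and Calcr is highest in MIP nuclei at 3.45.

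Lower in Drd2 than in Drd1 nuclei were Pdyn, a gene of the direct pathway, and other genes, not all of them particular to Drd1 nuclei. The dynorphin precursor Pdyn was at 3.06 and 2.68 CPM in Drd2 and 18.1 and 14.8 CPM in Drd1 nuclei, log2 ratios of -2.57 and -2.47. Zfp521, a zinc finger transcription factor, stood at -2.15 and -2.85, Slc35d3, a membrane carrier known to affect dopamine receptor trafficking, at -2.70 and -2.70, and the surface protein Lingo2 at 534 and 644 CPM against 2331 and 3038 CPM, ratios of -2.13 and -2.24. Bnc2, with 16 and 4 UMIs in Drd2 nuclei, was at -3.85 and -5.56. Gm12158, Gm47914, E130119H09Rik, Gm34557 and Gm48550, noncoding RNAs, had between 2 and 12 UMIs per library in Drd2 nuclei, too few for a precise ratio. The contactin-associated gene Cntnap3 was at -1.96 and -2.39 and Atp6ap1l at -2.14 and -2.77. A Drd1-side list was also chosen with earlier results known. Of its 7 measured members, 5 were at least 1.5-fold lower in both libraries, beside 2.64% of all genes. The phosphatase and transcription cofactor Eya1 was among them at -0.67 and -0.61. Dlk1 stood at -1.26 and -0.56, and the actin-binding protein gene Nebl went the other way at 0.31 and 0.34.

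Over all genes, 0.618% were higher in Drd2 nuclei in both libraries and 2.64% lower. Of 22 measured transcription factors of striatal neurons, 5 were higher and 2 lower. Besides Sp9 and Six3, these were Foxp1, a regulator of striatal maturation, at 2047 and 1958 CPM against 1289 and 1280.0 CPM in Drd1 nuclei, Meis1 at 0.90 and 0.97 and Zfhx3 at 0.75 and 0.95. Foxp2 was lower, at 308 and 244 CPM against 796 and 846 CPM, ratios of -1.37 and -1.79, and Ikzf1 was at -2.11 and -2.08. The mirrored Drd1 class is broad and takes nuclei on Ebf1, Isl1 or Tac1 alone. Against Drd1 nuclei with a Drd1 UMI, a comparator picked once the data had been seen, the ratios were 0.38 and 0.42 for Foxp1, -1.54 and -1.95 for Foxp2, 0.75 and 0.90 for Meis1, 2.5 and 2.58 for Penk and -2.85 and -2.74 for Pdyn. Foxp1 was then under 1.5-fold in both libraries, and the other 4 were past it.

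Of 29 genes of dopamine and cyclic AMP signalling, 1 was higher in Drd2 nuclei and 1 lower in both libraries, beside 0.618% and 2.64% of all genes, with medians of 0.08 and 0.10 on the log2 scale. Pde4b, which degrades cyclic AMP, was at 1024 and 1093 CPM against 587 and 580.2 CPM, ratios of 0.80 and 0.91, and the cyclase Adcy2 was at 47.3 and 47.3 CPM against 104 and 111 CPM, ratios of -1.14 and -1.23. Gnal, the G protein subunit that couples both Drd1 and Adora2a to cyclase, stood at 0.52 and 0.44. Of 22 modulatory receptors, Oprd1 and the serotonin receptor Htr2c (0.69 and 0.67) were higher, Htr2c being at 0.58 and 0.60 and under 1.5-fold in control against Drd1 nuclei with a Drd1 UMI, and 5 were lower, among them the cannabinoid receptor Cnr1 at -0.65 and -0.80 and the neurotrophin receptor Ntrk3 at -0.62 and -0.59. Of 38 neuronal adhesion genes none was higher and 7 were lower, led by Lingo2; Nlgn1 stood at -0.72 and -0.79 and Dscam at -1.10 and -1.0. The leak potassium channel Kcnk2 was at 327 and 209 CPM against 198 and 131 CPM, ratios of 0.72 and 0.68, or 0.54 and 0.53 and so under 1.5-fold against Drd1 nuclei with a Drd1 UMI, while 4 of 29 potassium channels were lower and none of 26 sodium and calcium channels passed 1.5-fold in both libraries. Names given here for genes beyond the ranked ones were chosen after their values were seen.

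Drd2 nuclei were also grouped by their Drd2-side UMIs, which the rule used, so the values are a description. Penk was higher in the groups with more of them: nuclei with 2, 3 to 5 and 6 or more of them had 151, 208 and 315 CPM in control and 152, 212 and 278 CPM in MIP nuclei, and barcodes with only 1, which fall outside the rule, had 80.3 and 82.3 CPM. Adarb2, a marker of some interneurons, went the opposite way, at 786, 555 and 334 CPM in control and 292, 273 and 232 CPM in MIP nuclei. The Adarb2 level just outside the rule was 1341 and 1378 CPM. Depth moves with these groups: the median was 8171.5, 9651 and 13529 UMIs in control and 6989, 8405 and 11832 in MIP nuclei, and its part in the order was not tested.

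A split by Foxp2, chosen after the values were seen, set apart nuclei with more of some striosome genes and of some Drd1-side genes. The striosome genes did not go one way, and Oprm1 was lower in these nuclei. Striosomes are the patches of striatum rich in mu opioid receptor, and matrix is the tissue around them. At least 3 Foxp2 UMIs were found in 525 control nuclei (34.5%, 32.1 to 37.0) and 274 MIP nuclei (24.7%, 22.2 to 27.3), and none in 592 and 597. Median depth with and without Foxp2 was 13064 and 10202.5 UMIs in control and 10497.5 and 8502 in MIP nuclei. The part of depth in this split was not tested. Between nuclei with and without it, the log2 ratio of the transcription factor Tshz1 was 0.93 and 0.95. Of 6 striosome genes, Kremen1 at 0.70 and 0.89 and Sema5b at 0.80 and 0.60 were past 1.5-fold in both libraries. Lypd1 at 0.51 and 0.92 and Bach2 at 0.36 and 0.23 had intervals above 0 but did not pass 1.5-fold in both. The share of all genes this far apart in the split was not counted. Oprm1, the mu opioid receptor, stood at -0.42 and -0.25 and Nnat at -0.15 and 0.00. Isl1, a factor of the direct pathway whose UMIs the rule limited, was at 2.14 and 1.74, as a description. Of the other Drd1-side genes of the rule, Drd1 was at 0.62 and 1.27 and Ebf1 at 0.63 and 0.75, on few UMIs. Tac1 was at -0.12 and -0.11. Whether nuclei of another class take part in this split was not tested. Penk was lower, at 200.4 against 314 CPM in control and 147 against 268 CPM in MIP nuclei, log2 ratios of -0.65 and -0.87, as were the serotonin receptor Htr1f at -0.77 and -1.18 and Zfhx3 at -0.77 and -0.90. The 6 matrix genes did not go one way: Id4 was at -0.42 and -0.60, Calb1 at -0.24 and -0.39, Gda at -0.16 and -0.28, Rasgrp2 at -0.37 and -0.02, Epha4 at -0.05 and -0.21 and Cdh8 at 0.14 and 0.19. Drd2 differed little, at -0.04 and -0.06. Nuclei with at least 5 UMIs of another class made up 22.9% of the control nuclei with Foxp2 and 9.80% of those without, and 17.2% and 11.1% in MIP nuclei. Without them Sema5b stood at 0.85 and 0.55, Kremen1 at 0.75 and 0.70 and Penk at -0.65 and -0.71, but the oligodendrocyte gene Bcas1 went from 2.26 and 2.31 to 0.30 and 2.94.

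A split by Oprm1 gave another pattern. At least 3 Oprm1 UMIs were found in 395 control nuclei (26.0%, 23.8 to 28.3) and 210 MIP nuclei (18.9%, 16.7 to 21.3), and none in 591 and 494. Lower in nuclei with Oprm1 was Inf2, an actin regulator, at 68.0 against 117 CPM in control and 48.0 against 98.5 CPM in MIP nuclei, log2 ratios of -0.78 and -1.04, and the neurite protein Gprin3 stood at -0.75 and -0.77. Higher were Ipcef1, at 2.23 and 1.96, the glycine receptor subunit Glra3 at 1.33 and 1.37 and Adarb2 at 1.0 and 1.16. Positions of these genes relative to Oprm1 were not examined, and reads of overlapping genes may be shared. Penk was level, at 259 against 259 CPM in control and 223 against 216 CPM in MIP nuclei. The genes of the rule Ppp1r1b (DARPP-32), Rgs9 and Pde10a were at -0.72 and -0.86, -0.56 and -0.72, and -0.60 and -0.48, as a description. Nuclei with at least 5 UMIs of another class made up 18.5% of the control nuclei with Oprm1 and 13.0% of those without. In MIP nuclei they made up 21.9% and 8.30%. Without the nuclei that carried markers of other classes, Inf2 stood at -0.68 and -0.81, Ipcef1 at 2.19 and 2.01 and Glra3 at 1.43 and 1.26. Other high genes did not hold: Dpp10 went from 0.90 and 1.17 to 0.24 and -0.37, and Lingo2 from 1.15 and 0.87 to 0.89 and -0.05. The 6 lists used for that hold no interneuron markers, and the 25% of control and 16.9% of MIP Drd2 nuclei with 5 or more interneuron UMIs were kept; their part was not tested. Nuclei with 3 or more UMIs of a gene are also deeper, with medians of 14350 against 10007 UMIs for Oprm1 in control and 11673.5 against 8264.5 in MIP nuclei, and the part of depth was not tested.

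**Figure D3:**
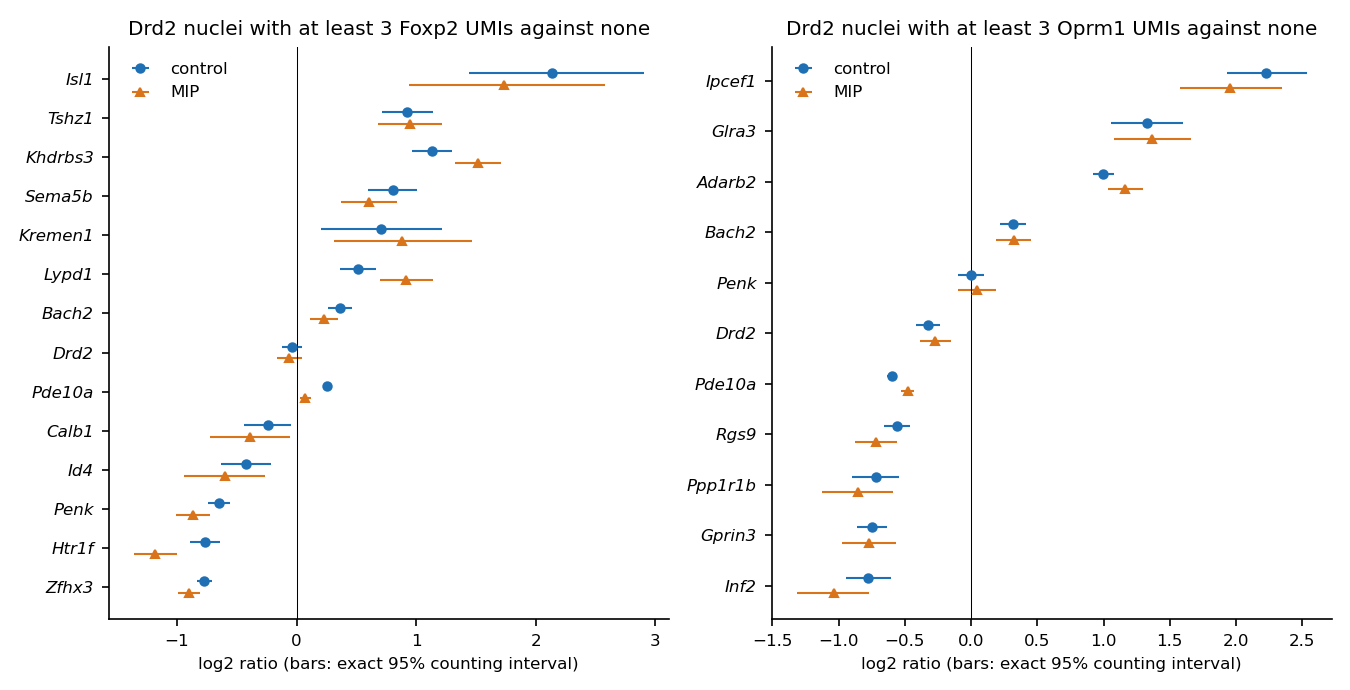
Log2 ratio of CPM between Drd2 nuclei with at least 3 UMIs and with none of Foxp2 (left) or Oprm1 (right), in the control (blue circles) and MIP library (orange triangles), with exact 95% counting intervals as bars. In both libraries Tshz1, Khdrbs3, Sema5b, Kremen1, Lypd1 and Bach2 lie above 0 and Penk below 0 on the left, and Penk lies at 0 on the right.

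Drd2 nuclei made up about the same share of both libraries: 9.02% (8.59 to 9.46) of passing control barcodes and 9.16% (8.65 to 9.69) of MIP barcodes. Among Drd2 and Drd1 nuclei together they made up 26.2% (25.1 to 27.4) and 29.3% (27.9 to 30.8). With each barcode thinned to 3000 UMIs, the shares of all barcodes were 5.21% and 4.87%. Those among projection neurons were then 23.8% (22.2 to 25.4) and 23.8% (21.9 to 25.7). They were 25.3% and 29.7% after doublet removal and 25.5% and 29.6% with at most 1% mitochondrial UMIs. With at least 3 Drd2-side UMIs they were 23.2% and 24.3%, and between 5000 and 15000 UMIs 30.7% and 31.1%. The part of depth in the gap between the libraries was not tested. The thinning left out 4626 control and 2485 MIP barcodes below that depth, 19 and 12 of them Drd2 nuclei. Against Drd1 nuclei with a Drd1 UMI only, the shares were 40.8% and 45.1%.

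Between MIP and control, more genes were lower than higher in Drd2 nuclei. Of 14461 genes with at least 60 UMIs over both libraries, 252, or 1.74%, were at least 1.5-fold higher in MIP nuclei and 2208, or 15.3%, at least 1.5-fold lower, and the median log2 ratio over all genes was -0.15. In Drd1 nuclei the higher genes were 1.58% of 17435 and the lower 17.5%, and the median was -0.16. A TMM scaling, which trims extreme genes, adds 0.15 to every log2 ratio in Drd2 nuclei. It gave 595 higher and 1274 lower, so that the higher genes made up 31.8% of those past 1.5-fold in place of 10.2%. Ratios are given unscaled, and -0.15 is the level to set them against. The shift turns medians from below to above 0 for the Drd2-side and Drd1-side lists, the Drd2-side genes of the rule, and the dopamine signalling, modulatory receptor, transcription factor, striosome, maturing neuron, GABA, axon guidance and adhesion lists. Lower ratios were more frequent among short genes: in the fifth of genes with the shortest spans, up to 8760 bases, the median was -0.35 and 26.2% were lower, and in the fifth with the longest, from 84666 bases, the median was -0.05 and 10.6% were lower. The same order held in Drd1 nuclei, from -0.36 to -0.04, and in all other barcodes, from -0.48 to 0.04.

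The genes highest in MIP Drd2 nuclei included the signalling factor Stat3, the circadian clock genes Per2 and Cry1 and the glucocorticoid-induced chaperone gene Fkbp5. Stat3, which cytokines of the interleukin 6 family activate, was at 23.0 CPM in control and 60.5 CPM in MIP nuclei, with 466 and 723 UMIs, a log2 ratio of 1.40 (1.23 to 1.57). It was at 1.29 (1.19 to 1.40) in Drd1 nuclei and 0.98 (0.91 to 1.06) in all other barcodes. Fkbp5 had 1031 and 1221 UMIs, 50.8 and 102 CPM, a log2 ratio of 1.01 (0.89 to 1.13), with 1.0 (0.93 to 1.08) in Drd1 nuclei and 1.22 (1.16 to 1.28) elsewhere. Per2 was at 8.88 and 22.2 CPM, 1.32 (1.04 to 1.60), with 1.20 in Drd1 nuclei and 1.30 elsewhere. Cry1 was at 29.7 and 66.2 CPM, 1.16 (1.0 to 1.31), with 1.09 and 1.25. All 4 were thus higher in both projection neuron classes and in the rest of the library, and none was particular to Drd2 nuclei. Also ranked were Lin54, a subunit of a cell cycle repressor complex, at 1.15, the mitochondrial carrier Slc25a30 at 1.21, 1700001K19Rik at 1.32, Gm22146 at 1.44, which lies antisense within Fkbp5 so that reads may be shared, and Rsph4a, a part of motile cilia, at 1.62 on 38 and 69 UMIs.

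Clock genes did not all go one way. Of 21 measured, 6 were at least 1.5-fold higher (Per2, Ciart, Cry1, Cry2, Hlf and Per1), beside 1.74% of all genes. Nfil3 was lower, at -0.69 (-1.39 to -0.04), beside 15.3% of all genes, and the list median was 0.20. In Drd1 nuclei 6 were higher and none lower, beside 1.58% and 17.5% of all genes, with the same median of 0.20. Cry2 and Hlf are named after their values were seen. Ciart, a repressor of the core activators, was at 3.21 and 7.28 CPM, a log2 ratio of 1.18 (0.70 to 1.67), Cry2 at 44.8 and 78.0 CPM, 0.80, and Per1 at 0.60. Of the activators, Arntl was at 0.20 and Clock at 0.13, and Per3 was at -0.33. The time of day at which tissue was taken is not given in the sources used here. Promoters of the 2 clock repressors with sequence at hand are shown because the factors Arntl and Clock bind E-boxes. They run 5′ to 3′ on the minus strand of GRCm38.p6, Cry1 at chr10:85185005-85185304 and Ciart at chr3:95882179-95882478, and capitals mark the E-box (CACGTG) and the GC box (GGGCGG, either strand).
Cry1: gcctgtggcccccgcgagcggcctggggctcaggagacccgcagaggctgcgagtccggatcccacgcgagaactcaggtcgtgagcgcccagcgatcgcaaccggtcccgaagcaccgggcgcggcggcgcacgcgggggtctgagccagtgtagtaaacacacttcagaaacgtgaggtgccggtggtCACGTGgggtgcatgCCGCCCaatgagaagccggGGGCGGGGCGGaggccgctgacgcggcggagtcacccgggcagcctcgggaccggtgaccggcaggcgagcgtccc
Ciart: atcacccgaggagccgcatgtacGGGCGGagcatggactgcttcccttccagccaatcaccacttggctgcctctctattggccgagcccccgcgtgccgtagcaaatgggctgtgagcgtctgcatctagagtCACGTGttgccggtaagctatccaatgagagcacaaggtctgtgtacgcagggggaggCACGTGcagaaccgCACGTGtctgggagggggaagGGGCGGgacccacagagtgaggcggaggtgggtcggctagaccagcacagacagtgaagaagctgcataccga
Cry1 held 1 E-box and 3 GC boxes and Ciart 3 E-boxes and 2 GC boxes. An E-box of these letters was in 7.15% of the 32851 promoters. Among the 13 of 17 named genes with RefSeq promoters, Fkbp5 and Oprd1 also held 1 each.

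Of 17 measured glucocorticoid-responsive genes, 2 were higher (Fkbp5 and Per1), beside 1.74% of all genes. Another 3 were lower, near the 15.3% of all genes, and the median of -0.17 was near the -0.15 of all genes. Nr3c1, the glucocorticoid receptor, was at 60.1 and 37.1 CPM, a log2 ratio of -0.69 (-0.85 to -0.54), and the kinase Sgk1 at -0.65 (-0.78 to -0.53), while Klf9 was at 0.32 (0.20 to 0.43). Of 11 genes of the STAT3 pathway 1 was higher, Stat3 itself, beside 1.74% of all genes, and none lower, with a median of 0.23. The kinase Jak2 was at 0.42 (0.30 to 0.55) and Jak1 at -0.18 (-0.33 to -0.02). Socs3, the feedback target of STAT3, had only 11 and 9 UMIs and was not measured. Immediate early genes, which follow neuronal activity, had 3 of 19 higher and 2 lower, beside 1.74% and 15.3% of all genes. Nr4a2 stood at 1.54 (0.80 to 2.32) on 25 and 43 UMIs and Bdnf at 0.82 (0.24 to 1.40) on 51 and 53 UMIs, both counts too low for a precise ratio.

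**Figure D4:**
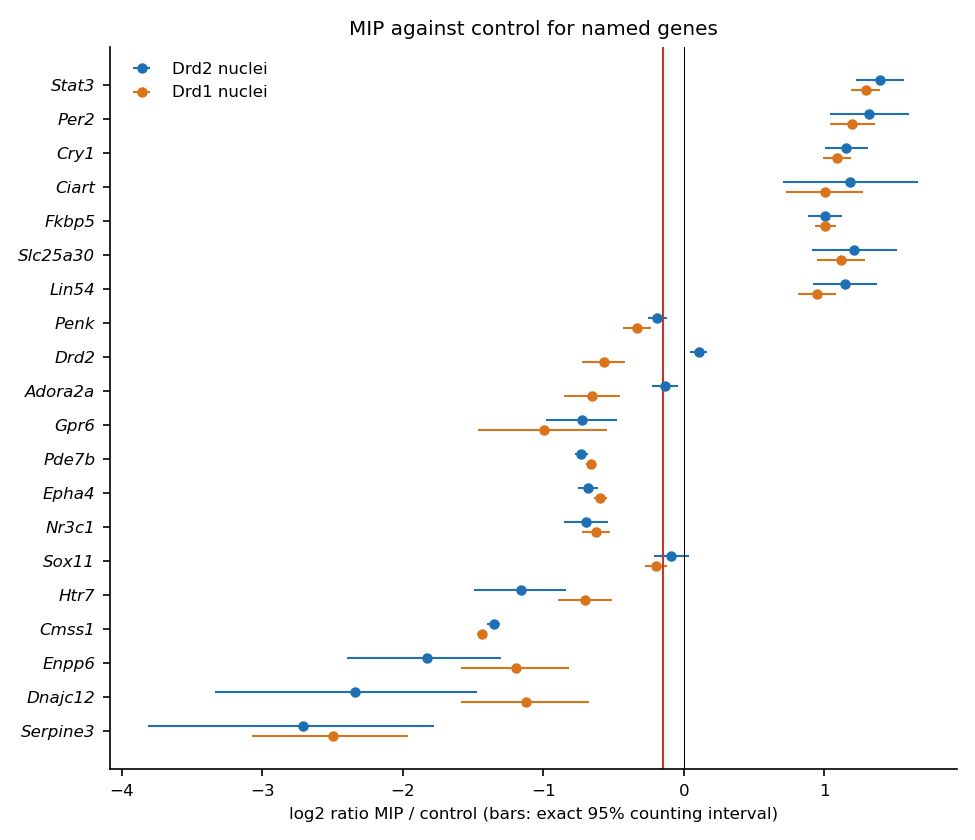
Log2 ratio of MIP to control with exact 95% counting intervals for 20 genes in Drd2 (blue) and Drd1 nuclei (orange); the red line is the median over all genes in Drd2 nuclei, -0.15, and the black line is 0. Stat3, Per2, Cry1, Ciart, Fkbp5, Slc25a30 and Lin54 lie above 0 in both classes.

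None of the 8 Drd2-side genes outside the rule passed 1.5-fold in either direction, beside 1.74% of all genes past it upward and 15.3% downward. Their median of -0.13 lies above 0 with TMM scaling. Penk was at -0.19 (-0.26 to -0.12), Ptprm at -0.07 (-0.11 to -0.03), Grik3 at -0.28 (-0.36 to -0.21), Sp9 at 0.25 (0.10 to 0.40) and Six3 at 0.30 (0.15 to 0.45). Gpr52 was at -0.42 (-0.82 to -0.03), Upb1 at -0.47 (-0.86 to -0.09) and Ttc12 at 0.26 (-0.11 to 0.61), so members lay on both sides of the median of all genes. Of the genes that chose the nuclei, Drd2 was at 0.10 and Adora2a at -0.13, whereas Gpr6 had 493 and 176 UMIs and a ratio of -0.72 (-0.98 to -0.47). In the other barcodes Penk was at -0.81 (-0.88 to -0.74) and Gpr6 at -1.77 (-2.12 to -1.43). Of 29 dopamine and cyclic AMP genes none was higher and 2 were lower, with a median of -0.03. Pde7b, a phosphodiesterase of cyclic AMP, was at 655 CPM in control and 395 CPM in MIP nuclei, -0.73 (-0.78 to -0.68), and Rgs2, which shortens G protein signals, at -0.59 (-0.78 to -0.40). Gnal was at -0.07 (-0.11 to -0.03) and the cyclase Adcy9 at 0.35 (0.23 to 0.46).

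Modulatory receptors had 5 of 21 measured members lower and none higher, beside 15.3% and 1.74% of all genes, with a median of -0.10 that lies above 0 with TMM scaling. The serotonin receptor Htr7 was at 18.5 CPM in control and 8.28 CPM in MIP nuclei, for a log2 ratio of -1.16 (-1.49 to -0.84), the neuropeptide Y receptor Npy1r at -0.84 (-1.30 to -0.40), the kappa opioid receptor Oprk1 at -0.73, the substance P receptor Tacr1 at -0.64 and Cnr1 at -0.61 (-0.81 to -0.41). Htr7 was at -0.70 and Oprk1 at -0.29 in Drd1 nuclei. The metabotropic glutamate receptor Grm5 was at 0.21 (0.19 to 0.23). Ion channels and synaptic receptors had list medians near 0, above the -0.15 of all genes. In the fifth of genes with the longest spans the median was -0.05, and the spans of these lists were not compared. The medians were 0.03 for potassium channels, 0.06 for sodium and calcium channels, 0.01 for glutamate receptors and -0.01 for GABA genes. In all other barcodes the same lists had higher medians, of 0.18, 0.12, 0.13 and 0.05. Of 29 potassium channels 1 was lower, Kcnk2 at -0.65 (-0.71 to -0.58). None of 26 sodium and calcium channels, 32 glutamate receptor genes or 22 GABA genes passed 1.5-fold. The highest members included Gria2, an AMPA receptor subunit, at 0.35 (0.33 to 0.37), the GABA-making enzyme Gad2 at 0.38 (0.32 to 0.43) and the channel-associated protein Kcnip4 at 0.34 (0.32 to 0.36). Of 38 adhesion genes none passed 1.5-fold.

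Of 14 genes of immature neurons 4 were at least 1.5-fold lower, where 15.3% of all genes were, and none was higher, with a median of -0.47, or -0.32 with TMM scaling. Some are short, and among the genes with the shortest spans, as given for all genes, the median was -0.35 and 26.2% were lower. The tubulin Tubb2b was at 221 CPM in control and 141 CPM in MIP nuclei, -0.64 (-0.73 to -0.56), Nrep at -0.70 (-0.89 to -0.51), and Sox4 at -0.47 (-0.60 to -0.35), while Dcx, the microtubule protein of migrating neurons, was at -0.06 (-0.15 to 0.03) and Sox11 at -0.09 (-0.21 to 0.04). The median was -0.48 in Drd1 nuclei and -0.77 in all other barcodes. Of maturing-neuron genes, 3 of 18 were lower, with a median of -0.08: Pcp4, a calmodulin regulator, was at -0.73 (-0.82 to -0.65) and Nefm at -0.82 (-1.21 to -0.44), but the vesicle protein Syt1 at 0.34 (0.31 to 0.37). Of 6 matrix genes 1 was lower, Epha4, a guidance receptor, at 309 and 192 CPM and -0.68 (-0.75 to -0.61); Calb1 was at -0.52 (-0.68 to -0.36) and Id4 at -0.50 (-0.66 to -0.33), and the median was -0.42. None of 6 striosome genes passed 1.5-fold, with a median of -0.02, and Lypd1 was at -0.55 (-0.67 to -0.43). The guidance cue Sema3c was at -1.25 (-1.65 to -0.86). Of 22 transcription factors 3 were lower, Sp8, Dlx1 and Dlx2, at -0.90, -0.70 and -0.60; they mark young neurons of the ganglionic eminence, and Dlx2 is named after its value was seen. Nuclear genes of oxidative phosphorylation had 14 of 26 lower and none higher, with a median of -0.63, beside -0.35 and 26.2% lower in the fifth of genes with the shortest spans: cytochrome c (Cycs) was at -0.90 (-1.14 to -0.67) and Ndufa4 at -0.76 (-0.87 to -0.64), but Uqcrc2 at 0.41 (0.29 to 0.54). The list's median was -0.60 in Drd1 nuclei and -0.94 in all other barcodes.

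**Figure D5:**
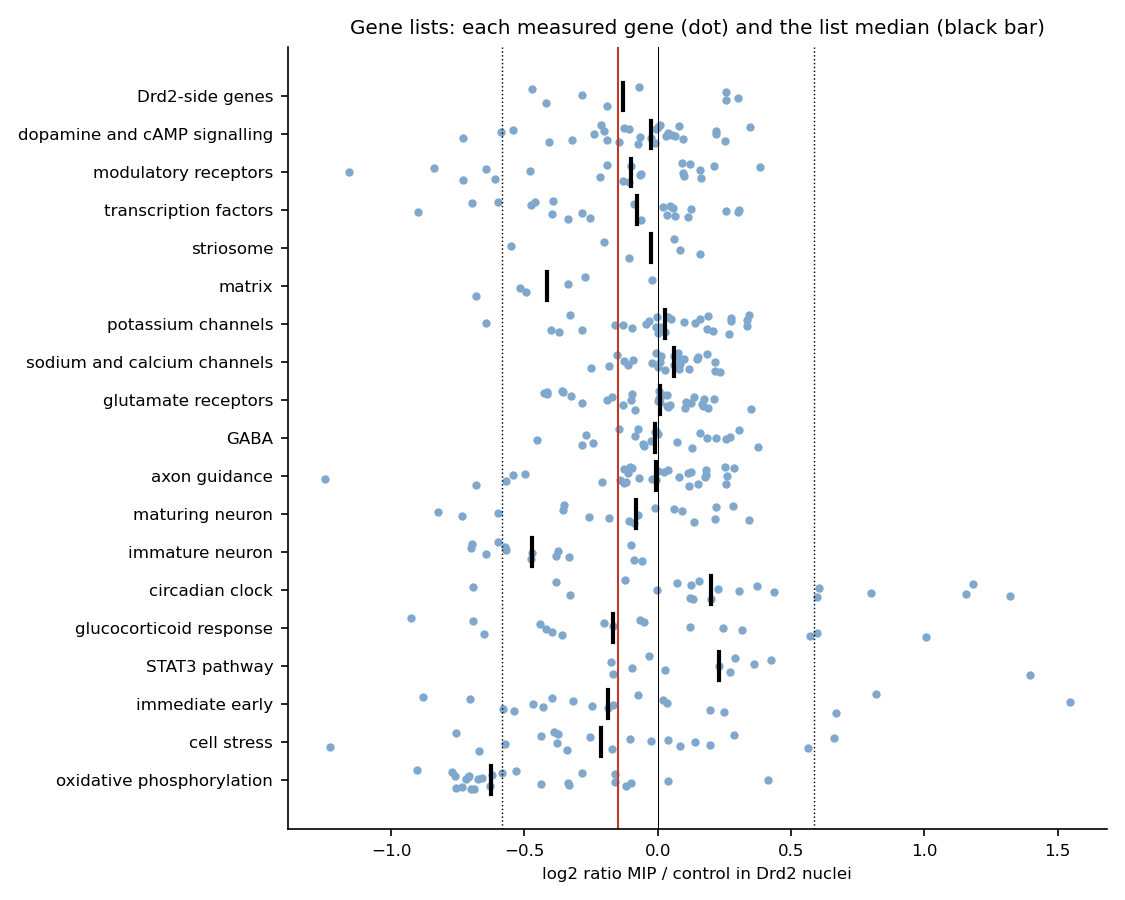
Log2 ratio of MIP to control in Drd2 nuclei for each measured gene (dots) of 19 lists, with the list median (black bar), the median over all genes (red line, -0.15) and dotted lines at a ratio of 1.5 either way. The medians of the immature neuron, matrix and oxidative phosphorylation lists lie left of the red line at -0.47, -0.42 and -0.63, and those of the clock and STAT3 lists right of 0 at 0.20 and 0.23.

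The lowest ranked genes were mostly lower in the other classes as well. Cmss1 was at 953 CPM in control and 373 CPM in MIP nuclei, -1.35 (-1.40 to -1.31) in Drd2 nuclei, -1.44 in Drd1 nuclei and -1.79 elsewhere. Serpine3, a serine protease inhibitor gene, had 111 and 10 UMIs, -2.71 (-3.81 to -1.78), and the noncoding RNAs Lrrc8dos, B230217J21Rik, Gm50024 and Gm26981 stood at -2.30, -1.95, -2.24 and -1.82. Pmch, the hypothalamic peptide precursor, had 114 and 2 UMIs in Drd2 nuclei and 19.2 and 0.121 CPM in the other barcodes; with 2 UMIs in 1 library its ratio was -5.07 (-8.13 to -3.18). Some genes had a lower ratio in Drd2 than in Drd1 nuclei: the adenylate kinase Ak3 stood at -1.79 (-2.31 to -1.30) against -0.77, Dnajc12 at -2.34 (-3.34 to -1.47) against -1.12, the aldehyde oxidase Aox3, on 59 and 5 UMIs, at -2.80 (-4.47 to -1.49) against 0.00, and Col4a6, on 60 and 6 UMIs, at -2.56 (-4.06 to -1.35) against -0.21. Few control nuclei held 3 of these genes. Dnajc12 was found in 3.68% of them, with 20 of 103 UMIs in 1 nucleus. Aox3 was found in 1.84%, with 13 of 59 in 1, and Col4a6 in 1.71%, with 15 of 60 in 1. The intervals do not take in such clumping, and whether these UMIs come from Drd2 neurons was not tested. Enpp6, a marker of newly forming oligodendrocytes, was at -1.83 (-2.40 to -1.30) and occurred in 3.42% and 1.71% of nuclei. Differences between the classes were not tested.

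Markers of other classes were present in Drd2 nuclei and differed between the libraries too. Summed over 7 interneuron markers, none of them at 0, Drd2 nuclei held 817 CPM in control and 474 CPM in MIP nuclei. Of 5 measured members 4 were lower, beside 15.3% of all genes, with Adarb2 at -0.81 (-0.87 to -0.76) and Npy at -0.93 (-1.09 to -0.78). Adarb2 was at -0.03 in Drd1 nuclei. The sums were 226 and 188 CPM for 5 astroglial, 130.2 and 81.0 CPM for 6 oligodendrocyte lineage, 75.9 and 71.3 CPM for 5 microglial and 35.3 and 50.9 CPM for 6 excitatory markers, with all members detected. Of the 5 microglial markers the complement genes C1qa and C1qb were higher, at 0.98 (0.55 to 1.41) and 0.84 (0.42 to 1.26), while Csf1r was at 0.27, Cx3cr1 at -0.082 and P2ry12 at -0.41 (-0.58 to -0.25). The macrophage genes Mrc1 and Cd163 and the acute phase gene Saa3 ranked highest of all, at 3.37, 3.65 and 2.94, but 199 of 220 MIP UMIs of Mrc1, 93 of 96 of Cd163 and 56 of 77 of Saa3 lay in 1 nucleus. Without the nucleus richest in each they were at 0.57 (-0.35 to 1.48), -1.24 (-3.70 to 0.65) and 1.16. Cell cycle markers, which these neurons should lack, were at 27.0 and 16.3 CPM.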

How the data were processed

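Nuclei of the SVZ were profiled in 1 control and 1 MIP library. The authors deposited a matrix of UMI counts per gene and barcode for each, made with Cell Ranger 5.0.1 on mm10, per the submitters' processing notes. Counts were used as deposited. The members and gene lists were chosen with earlier results of these data known. UMIs were summed per class and library, over 20280781 control and 11955972 MIP UMIs in Drd2 nuclei, and scaled to CPM. Genes with at least 60 UMIs over the sums compared were measured, and a ratio of 1.5 either way was counted. Intervals are exact 95% intervals of a ratio of 2 Poisson counts, and Clopper-Pearson for shares. No test between groups was possible. Named genes are the 12 highest and 12 lowest in each comparison by the interval bound nearest to 0, with a level in the class of at least 0.5 times that in other barcodes, the genes of the rule and of the Drd2-side, Drd1-side and dopamine lists, and the 3 highest and 3 lowest of each other list. Poisson counts were simulated for MIP against control in Drd2 nuclei, with 14461 genes and 200 changed by 2-fold. Of these 200, 99% were past 1.5-fold, and intervals covered 95.9% of the unchanged genes. Of the unchanged genes, 1.14% were past 1.5-fold from counting error alone. Coverage near 95% follows from the Poisson draw. The simulation held no clumping of UMIs in single nuclei and no spread between animals or libraries, so it measures neither. Alternatives were other thresholds on UMIs, doublet removal, a depth window, thinning, TMM scaling and the low-count filter. Python 3.11.15, SciPy 1.17.1, Scanpy 1.11.5 and edgeR 4.0.16 (for TMM only) were used, with gene positions from GENCODE M21 and promoters from RefSeq on GRCm38.p6. Some items are not reported here.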

Additional observations from a re-analysis of the deposited data

Results flagged for a closer look

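Among the named genes outside the rule with at least 60 UMIs in Drd2 nuclei, 2 had log2 ratios of MIP to control whose counting intervals lay on opposite sides of 0 in the 2 projection neuron classes. Cntnap3, a surface protein, was at -0.30 in Drd2 and 0.13 in Drd1 nuclei, and Sp9, a transcription factor of Drd2 neurons, at 0.25 and -0.21. Each class is 1 library per group, and the difference was not tested. TMM scaling adds 0.15 to the values in Drd2 nuclei and 0.18 to those in Drd1 nuclei. The Cntnap3 interval in Drd2 nuclei ended at -0.06 and the Sp9 interval in Drd1 nuclei at -0.04. With these shifts both intervals take in 0, so the opposite signs depend on the scaling.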

How the results depend on the processing

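No paired analysis was possible because each group is 1 library. Every comparison rests on 1 control and 1 MIP library, of different sex, and leaving out a library leaves no comparison. Alternatives chosen after seeing the data were leaving out nuclei with other-class markers, Drd1 nuclei with a Drd1 UMI, and leaving out the nucleus with the most UMIs of a gene. The share of Drd2 nuclei among barcodes was 7.66% of control and 7.11% of MIP barcodes with at least 3 Drd2-side UMIs, 7.92% and 8.60% after doublet removal, 15% and 14.2% between 5000 and 15000 UMIs, 5.21% and 4.87% after thinning to 3000 UMIs, and 7.61% and 8.0% without nuclei carrying other-class markers. It was 8.58% in the control with at most 1% mitochondrial UMIs. The Drd2 share of projection neurons was 23.2% and 24.3% with at least 3 UMIs, 30.7% and 31.1% in the depth window, 23.8% and 23.8% after thinning and 40.8% and 45.1% with Drd1 UMIs required, and 28.3% in the control without other-class nuclei. Genes higher in MIP numbered 595 with TMM scaling and 490.0 with a filter at 20 UMIs, and lower genes 1274, 3480 and, after thinning, 844. Genes higher in Drd2 than Drd1 nuclei numbered 149 with the filter at 20 UMIs. Genes lower numbered 628 with that filter, 595 after doublet removal, 195 after thinning and 160 with Drd1 UMIs required. Which genes were measured was set anew in each alternative except TMM scaling, and their number is not given here. These counts are therefore not shares, and a rise or fall in them cannot be read as a change in the share of genes. With TMM scaling the list medians were -0.047 (projection neuron genes of the rule), 0.017 (Drd2-side genes of the rule), 0.12 (dopamine signalling), 0.075 (transcription factors), 0.13 (striosome), -0.26 (matrix), -0.32 (immature), 0.069 (maturing), 0.18 (potassium), 0.21 (sodium and calcium), 0.16 (glutamate), 0.14 (GABA), 0.14 (axon guidance), -0.47 (oxidative phosphorylation) and 0.15 (adhesion). After thinning the medians were 0.16 for modulatory receptors, -0.19 for striosome, 0.15 for potassium and 0.23 for glucocorticoid genes. The adhesion median was -0.057 after doublet removal and 0.091 in the depth window. Ratios of MIP to control turned sign for Cd163, to -1.56 in the depth window, -1.48 without other-class nuclei and -1.24 without the richest nucleus. They also turned for Gm12158 (-0.89) without other-class nuclei, E130119H09Rik (0.033) after doublet removal, Gm48550 (0.44) in the depth window, and Nefm (0.35), Arl4d (0.27) and Lhx6 (0.44) after thinning. The cause was not tested. Of the other values of single genes under the alternatives, 1959 stayed inside the counting interval of the reported value and 566 lay outside it.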
